A study of Mus musculus with 6 samples.

Results

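Macrophages live on growth factors that their neighbours make. Colony-stimulating factor 1 (Csf1) and interleukin 34 (Il34) are a pair of ligands with little sequence in common that bind and activate the same receptor tyrosine kinase, Csf1r, on monocytes, macrophages and osteoclasts. A separate receptor for granulocyte-macrophage colony-stimulating factor, the product of Csf2, is built from an alpha subunit that binds the ligand (Csf2ra) and a signalling beta subunit (Csf2rb) shared with the interleukin 3 and interleukin 5 receptors. Spi1 encodes PU.1, the Ets-family transcription factor that myeloid cells need and that acts at the genes of these receptors. In muscle, Csf1r signalling is known for keeping up the macrophages that clear damaged fibres.

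These 6 genes were taken by symbol from the deposited gene count table, where each was on 1 line, out of 52110 lines with a symbol. All 6 passed the filter on low counts and were among the 15797 genes tested. RNA came from muscle of c57b6l mice of genotype WT, in 3 libraries from mice treated with the agent labelled click and 3 from mice treated with the agent labelled EDC. The labels do not say what either agent is, how or when it was given, which muscle was taken, or the age of the mice, and neither group is labelled as untreated. The series' design gives 3 mice a group, so each library was taken as a mouse.

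Libraries held 34472421 to 39305779 reads. Levels are given in CPM, counts relative to the size of the library after scaling by TMM factors, and group values are mean ± SD. The skeletal actin gene Acta1 stood at 34781 ± 7879 CPM in click muscle and at 21725 ± 5025 CPM in EDC muscle, and the muscle creatine kinase gene Ckm at 21232 ± 3015 CPM in click muscle and at 14559 ± 3707 CPM in EDC muscle (SD, n = 3 each), so markers of the labelled tissue were present in both groups. Click replicate 2 stands apart: the 23 macrophage and monocyte markers found summed to 216 CPM there, against 1523 and 1675 CPM in the other click libraries and 2731 to 6238 CPM in EDC. Values are therefore also given without it. Reads of Xist and Ddx3y mark replicate 1 of each group as female and the other 4 libraries as male. A ratio of mt-Atp6 to Gm10925 reads above 0.9 set click replicate 2, EDC replicate 1 and EDC replicate 3 apart from the other libraries, where it was 0.162 to 0.166.

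Sequence bears on what the counts of some of these genes can show. Csf2rb (ENSMUSG00000071713.6; chromosome 15, plus strand, 78325752 to 78353847 in mm10, with positions from GENCODE M21) sits beside a near-identical copy, Csf2rb2 (minus strand, 78282507 to 78305721). In the mouse, Csf2rb2 encodes a beta subunit that serves interleukin 3 alone. The coding sequences compared, from GENCODE M21, are 2688 and 2634 bases long, and 95.2% of the 2628 aligned bases are identical. Of all stretches of 50 bases in the Csf2rb coding sequence, 26% occur unchanged in that of Csf2rb2, as do 11% of those of 100 bases and 6.5% of those of 150 bases. The longest identical run, of 242 bases, ends where the following pair of stretches (coding bases 2285 to 2364 in both, differing bases in capitals) begin to differ. They are shown because a read that lies wholly in the identical run cannot be placed in 1 gene.
Csf2rb: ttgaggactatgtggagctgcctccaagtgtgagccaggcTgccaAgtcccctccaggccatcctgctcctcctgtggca
Csf2rb2: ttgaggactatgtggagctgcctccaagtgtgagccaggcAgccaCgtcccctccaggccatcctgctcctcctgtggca

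Promoter windows from RefSeq (GRCm38.p6) covered 2 of the 6 genes, Csf1 and Csf2ra. The 250 bases before the RefSeq start of each gene are shown because these are the members with a window, a ligand of Csf1r and a subunit of the other receptor. Both strands were searched for GAGGAA, the core bound by PU.1, for TGANTCA, an AP-1 site, for TGACGTCA, the cAMP response element, and for the NF-kB consensus. The capitals mark, in Csf1, the single NF-kB match, which starts 154 bases before the gene on the opposite strand, and, in Csf2ra, a pair of PU.1 core matches side by side, starting 14 and 8 bases before the RefSeq start.
Csf1, chr3:107760470-107760719, minus strand: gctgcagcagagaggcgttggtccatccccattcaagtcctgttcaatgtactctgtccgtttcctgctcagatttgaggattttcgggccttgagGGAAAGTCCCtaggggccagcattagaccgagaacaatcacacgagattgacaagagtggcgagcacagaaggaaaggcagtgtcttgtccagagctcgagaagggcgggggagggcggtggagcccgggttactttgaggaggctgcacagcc
Csf2ra, chr19:61228419-61228668, minus strand: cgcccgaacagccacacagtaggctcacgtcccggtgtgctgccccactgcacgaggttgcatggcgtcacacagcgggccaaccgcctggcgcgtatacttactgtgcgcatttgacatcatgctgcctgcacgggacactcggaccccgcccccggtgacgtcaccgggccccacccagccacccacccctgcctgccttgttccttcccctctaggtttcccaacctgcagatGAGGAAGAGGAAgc

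For Csf2ra the RefSeq start lies a few bases inside the GENCODE gene. By GENCODE the PU.1 match nearer the RefSeq start lies within the gene and the other spans the start of the gene. The PU.1 core was found in 23.3% of all 32851 windows of that length and the NF-kB consensus in 7.25%. The Csf2ra window also holds 1 cAMP response element, a motif found in 1.55% of windows. No AP-1 site was found in either window, against 6.75% of all windows. These are matches of letters, and binding was not measured.

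All 6 genes had lower levels in click than in EDC muscle (a log2 fold change, click over EDC, below 0, as had 48.7% of all genes tested), and for 5 of them, all but Il34, the highest click library lay below the lowest EDC library. That order was seen in 12.4% of all genes tested. None of the 6 was called by the main test, edgeR's quasi-likelihood test with Benjamini-Hochberg adjustment over all genes, with adjusted p from 0.298 to 0.728. That test called 1 gene in all, 0.00633% of those tested. Csf1, Csf1r and Csf2rb had an unadjusted edgeR p under 0.05 with a lower level in click, as did 8% of all genes. The DESeq2 Wald test called the same 3 as lower (adjusted p = 0.0333 for Csf1, 0.0401 for Csf1r and 0.00703 for Csf2rb), against 2.27% of all genes, and limma-voom called none of the 6 and 0 genes in all, with 1169 higher and 1433 lower at an unadjusted p under 0.05. Calls of the opposite direction, with 0 of the 6 among them, took 7.22% of all genes at an unadjusted edgeR p under 0.05, 1.56% with DESeq2 and 9.84% by separate groups. The median log2 fold change was -1.47 over the 6 genes and 0.02 over all genes tested.

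**Figure D1:**
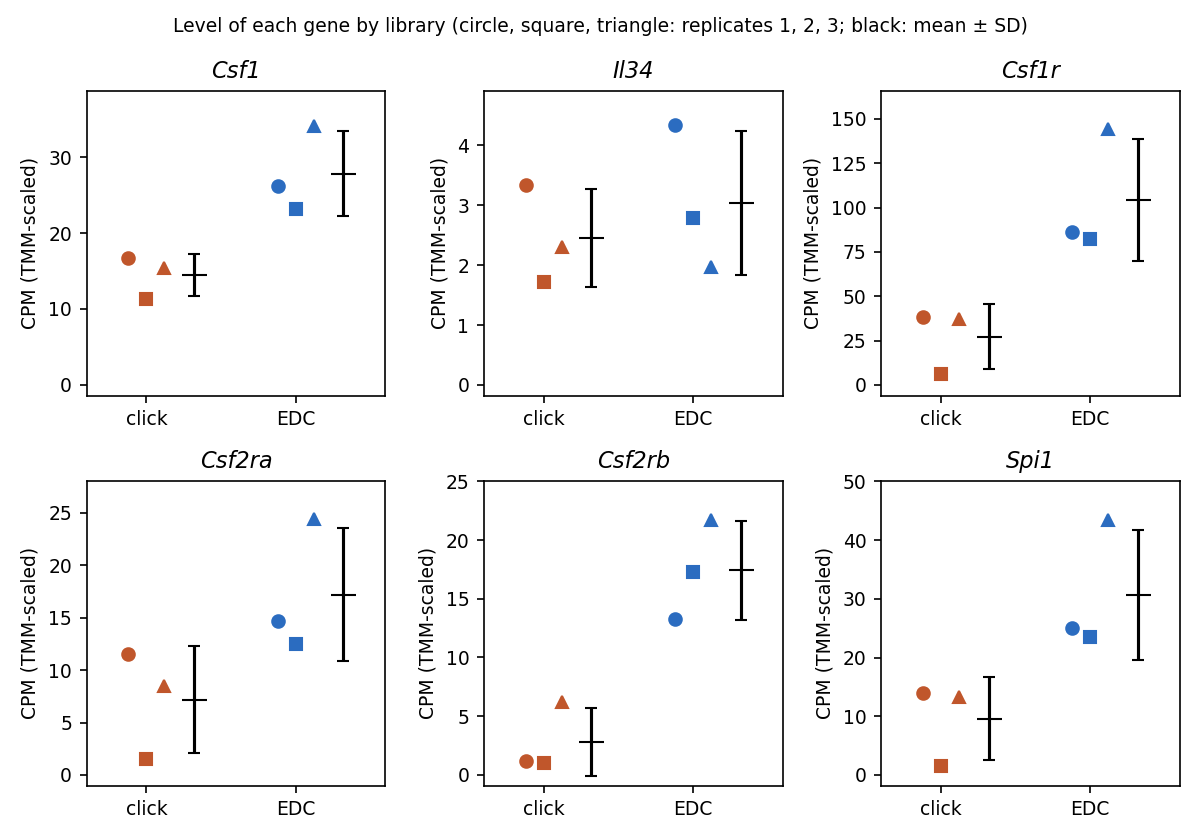
Level in CPM, scaled by TMM factors, of each of the 6 genes in the 3 click and 3 EDC libraries, with the mean and SD in black. Click and EDC values are apart for every gene except Il34, and click replicate 2 (square) is the lowest click library for every gene.

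Of the ligands, Csf1 (ENSMUSG00000014599.10; chromosome 3, minus strand, 107741048 to 107760469) was the one that set the groups apart. Its level was 16.7, 11.3 and 15.4 CPM in the click libraries, in the order of their replicate numbers as throughout, and 26.2, 23.2 and 34.1 CPM in the EDC libraries. Every click value was below every EDC value, and the click libraries differed among themselves by less than the gap between the group means. Means of 14.5 ± 2.82 CPM in click muscle and 27.8 ± 5.65 CPM in EDC muscle (SD, n = 3 each) gave a log2 fold change, click over EDC, of -0.94 (SE 0.24, edgeR unadjusted p = 0.00501, adjusted p = 0.298). That is a level 1.92-fold lower in click. Without click replicate 2 the log2 fold change was -0.84.

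Il34 (ENSMUSG00000031750.15; chromosome 8, minus strand, 110741829 to 110805924) was weakly expressed in both groups and did not separate them. It was covered by 92, 47 and 91 reads in click and by 189, 101 and 99 reads in EDC, or 3.33, 1.71 and 2.30 CPM in click and 4.33, 2.79 and 1.97 CPM in EDC. The lowest EDC library, replicate 3, lay below click replicates 1 and 3. The log2 fold change was -0.31 (SE 0.42, edgeR adjusted p = 0.728), and it turned to 0.04 without EDC replicate 1. Exons of Il34 overlap those of Gm15894 and Gm15895 on the opposite strand, which together held 6 reads in EDC replicate 1 and 0 in the other 5 libraries.

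Csf2, the ligand of the receptor made of Csf2ra and Csf2rb, had 0 reads in all 6 libraries, which allows up to 0.0763 to 0.0870 CPM, before TMM scaling, in a library, taking 3 reads as the limit that a count of 0 leaves. This limit covers counting error only. Csf2 RNA was not detectable at this depth in either group.

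Csf1r (ENSMUSG00000024621.16; chromosome 18, plus strand, 61100598 to 61132149), the receptor that both ligands share, had the highest level per exon length of the 6 in every library except click replicate 2. It stood at 38.2, 6.12 and 37.3 CPM in click and at 86.4, 82.3 and 144 CPM in EDC. Click replicates 1 and 3 were close to each other and click replicate 2 was far below them, while all 3 EDC libraries were above 80 CPM. The means were 27.2 ± 18.3 CPM in click muscle and 104 ± 34.3 CPM in EDC muscle (SD, n = 3 each), a log2 fold change of -1.93 (SE 0.65, edgeR unadjusted p = 0.0201, adjusted p = 0.298), or 3.82-fold lower in click. It was -1.51 (SE 0.32) without click replicate 2. Exons of Csf1r overlap those of Hmgxb3 on the opposite strand, which held 211 to 490 reads in click and 453 to 493 in EDC, against 168 to 1473 reads of Csf1r in click and 2974 to 7217 in EDC. Reads of the overlap cannot be told apart, since whether counting used strand is not given in the sources used here.

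In bulk tissue, fewer macrophages and less Csf1r RNA in each macrophage cannot be told apart. Csf1r was therefore also set against the mean of the 23 macrophage and monocyte markers in the same library, on the scale of log2(CPM + 0.5). The difference was 1.07, 0.70 and 1.06 in click and 1.42, 1.63 and 1.55 in EDC, a mean difference of -0.59, and the groups did not overlap. The exact two-sided permutation p was 0.1, the smallest that 3 against 3 libraries allow, and 0.2 adjusted over the 6 such ratios tested. Leaving out each library gave -0.65 to -0.47. The value depends on how the markers are summarised: Timd4, Ly6c2 and Cd163, the 3 of the 23 that were higher in click, raise their mean there. With the median of the markers, each centred on its own mean, an alternative chosen after the data were seen, the difference was -0.19 with overlapping groups (exact permutation p = 0.3). With those 3 left out of the mean it was -0.18. They were picked by their direction in these data, so a smaller difference was fixed beforehand.

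The alpha subunit gene Csf2ra (ENSMUSG00000059326.7; chromosome 19, minus strand, 61223957 to 61228429) gave a smaller fold difference than Csf1r. It stood at 11.5, 1.53 and 8.48 CPM in click and at 14.7, 12.5 and 24.4 CPM in EDC. Click replicate 1 lay just below EDC replicate 2, and click replicate 2 was again far below the rest. The log2 fold change was -1.26 (SE 0.66, edgeR adjusted p = 0.381), and -0.83 (SE 0.36) without click replicate 2. Relative to the mean of the macrophage markers Csf2ra was higher in click by 0.16, with overlapping groups (exact permutation p = 0.3), and relative to their median by 0.56, without overlap (exact permutation p = 0.1).

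Csf2rb, the signalling subunit, had the largest fold difference of the 6 genes as deposited, with all libraries; without click replicate 1 it was -2.29 in log2, as was Csf1r. It was covered by 34, 29 and 244 reads in click and by 579, 626 and 1089 reads in EDC, which is 1.23, 1.06 and 6.18 CPM in click and 13.3, 17.3 and 21.7 CPM in EDC. Here click replicate 1 was as low as click replicate 2, unlike in the other genes, and click replicate 3 was several times higher than both. The means were 2.82 ± 2.91 CPM in click muscle and 17.4 ± 4.21 CPM in EDC muscle (SD, n = 3 each), a log2 fold change of -2.61 (SE 0.70, edgeR unadjusted p = 0.00738, adjusted p = 0.298), or 6.10-fold lower in click. It was -3.92 (SE 0.34, edgeR adjusted p = 0.0561) without click replicate 3 and -2.26 without click replicate 2. Relative to the mean of the macrophage markers it was -3.42, -1.38 and -1.44 in click and -1.24, -0.58 and -1.15 in EDC, a difference of -1.09 (exact permutation p = 0.1, 0.2 adjusted), and -0.42 without click replicate 1. Relative to their median the difference was -0.69, with overlapping groups (exact permutation p = 0.6).

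The size of the Csf2rb difference may depend on how reads were divided between the copies. Csf2rb2 stood at 10.4 ± 7.64 CPM in click muscle and at 30.4 ± 19.1 CPM in EDC muscle (SD, n = 3 each), with overlapping groups, and its log2 fold change was -1.54 (SE 0.65; edgeR, adjusted p = 0.329). Of the reads of both genes, Csf2rb took 12.3%, 22.0% and 24.8% in click and 36.8%, 51.7% and 29.4% in EDC. The 95% exact binomial intervals, which cover counting error only, were 8.65% to 16.7%, 15.2% to 30.0% and 22.1% to 27.6% in click and 34.4% to 39.2%, 48.8% to 54.5% and 27.9% to 30.9% in EDC. Every click share lay below every EDC share, although the interval of click replicate 2 reached that of EDC replicate 3. With the reads of both genes summed, an alternative chosen after the data were seen, the log2 fold change was -1.85 (SE 0.62, edgeR adjusted p = 0.298), next to -1.93 for Csf1r. How the counting treated reads that match both copies is not given in the sources used here, and its part in the shares was not tested.

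**Figure D2:**
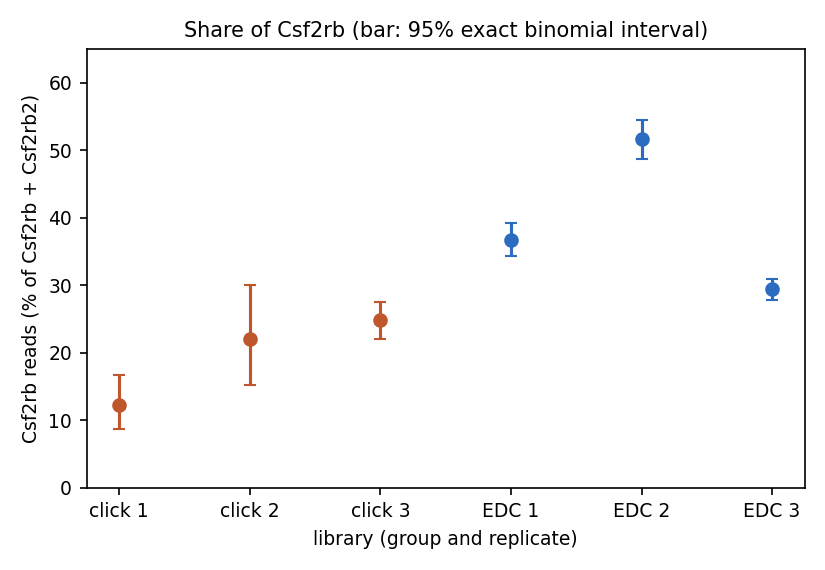
Reads of Csf2rb as a percent of the reads of Csf2rb and Csf2rb2, by library, with 95% exact binomial intervals. The click libraries lie between 12.3% and 24.8% and the EDC libraries between 29.4% and 51.7%.

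Spi1 (ENSMUSG00000002111.8; chromosome 2, plus strand, 91082390 to 91115756), the transcription factor, ran closest to Csf1r over the libraries. It stood at 14.0, 1.46 and 13.3 CPM in click and at 25.0, 23.5 and 43.5 CPM in EDC. As for Csf1r, click replicates 1 and 3 were alike, click replicate 2 was far below them and EDC replicate 3 was the highest. The log2 fold change was -1.67 (SE 0.74, edgeR adjusted p = 0.334), or 3.19-fold lower in click, and -1.21 (SE 0.34) without click replicate 2. Relative to the mean of the macrophage markers the difference for Spi1 was -0.38, with overlapping groups (exact permutation p = 0.2), and -0.15 without click replicate 2. Relative to their median it was 0.03 (exact permutation p = 1).

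The ligands and the receptor differed by unequal amounts. Log2 of Csf1 minus log2 of Csf1r was -1.17, 0.83 and -1.25 in click and -1.70, -1.80 and -2.06 in EDC, so that click libraries had more Csf1 reads for each Csf1r read in all 3 cases. The difference was 1.33 (exact permutation p = 0.1), and 0.65 without click replicate 2, the only library in which Csf1 exceeded Csf1r. Il34 relative to Csf1 was higher in click by 0.68, with overlapping groups (exact permutation p = 0.2), and by 0.29 without EDC replicate 3.

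Per kilobase of exon, Csf1r led in both groups. In EDC the levels were 18.0 ± 5.94 CPM per kilobase for Csf1r, 11.4 ± 4.13 for Spi1, 6.0 ± 2.21 for Csf2ra, 5.27 ± 1.07 for Csf1, 2.39 ± 0.578 for Csf2rb and 1.55 ± 0.611 for Il34 (SD, n = 3). The ranges of Csf1r and Spi1, of Csf2ra and Csf1, and of Csf2rb and Il34 overlapped, while those of Spi1 and Csf2ra, and of Csf1 and Csf2rb, did not. In click the order was Csf1r with 4.71 ± 3.17, Spi1 with 3.56 ± 2.61, Csf1 with 2.74 ± 0.535, Csf2ra with 2.5 ± 1.78, Il34 with 1.25 ± 0.418 and Csf2rb with 0.388 ± 0.400 CPM per kilobase (SD, n = 3). There all neighbours overlapped except Il34 and Csf2rb. Csf2rb was the lowest gene in click and Il34 the lowest in EDC.

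Patterns over the 6 libraries were compared by the root mean square difference of log2(CPM + 0.5), each gene centred on its own mean. Csf1r and Spi1 were the closest pair of the 6, at 0.153, and Csf2ra was 0.333 from Spi1 and 0.397 from Csf1r. Csf2rb was 0.796 or more from each of the others, and Il34, nearest to Csf1, 0.534 or more. Among 11976 eligible genes, Csf1r was nearest to Fam129b (0.102), Cpz (0.126) and C1qc (0.141), a complement gene of macrophages. Spi1 was nearest to Pld3 (0.114), Ifi211 (0.135) and Cpz (0.138). Csf2ra was nearest to Tmem178 (0.128), Dse (0.153) and Rassf4 (0.158). Csf1 was nearest to Gas2l1 (0.0381), Arl8a (0.0655) and Tspan4 (0.0762), and Il34 to Dleu2 (0.112), Flt4 (0.113), a receptor of lymphatic endothelium, and Setd6 (0.117). No gene came as near to Csf2rb, for which Chrng (0.490), Slc30a7 (0.516) and Pik3r5 (0.541) were the first 3. These distances rest on 6 libraries of 2 groups and include the difference between them.

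**Figure D3:**
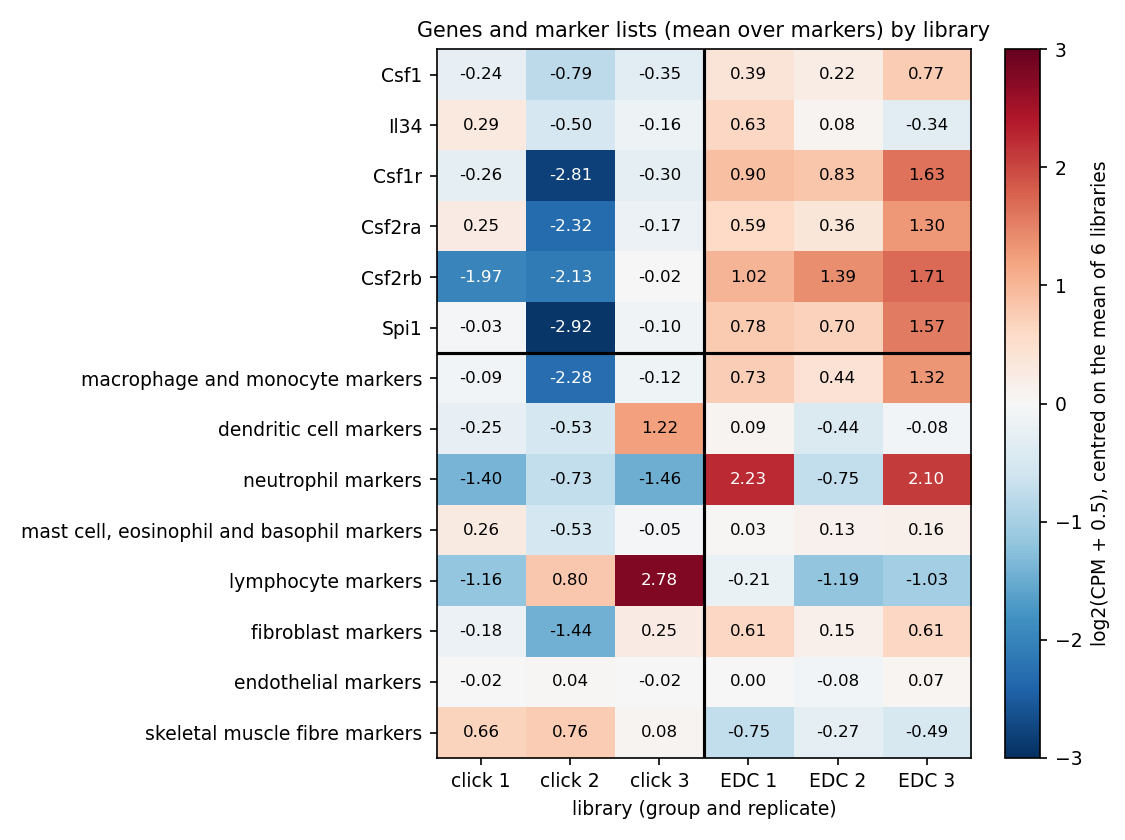
Log2(CPM + 0.5) centred on the mean over the 6 libraries, for each gene (above the line) and as the mean over the tested markers of each list other than the 6 genes (below it), by library. Csf1r, Csf2ra and Spi1 have their lowest value in click replicate 2, as do the macrophage and monocyte markers at -2.28, while Csf2rb is as low in click replicate 1.

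The macrophage and monocyte markers lay lower in click together with the receptors. Of 23 tested, 20 were lower in click, with a median log2 fold change of -1.78; 0 passed the edgeR threshold, 11 were lower and 1 higher at an unadjusted p under 0.05, and DESeq2 called 6 lower and 1 higher. Adgre1, which encodes the F4/80 antigen, stood at 10.2 ± 7.59 CPM in click and 54.0 ± 35.2 CPM in EDC, and Cd68 at 48.2 ± 43.8 and 200 ± 89.3 CPM (SD, n = 3 each). The log2 fold changes were -1.93 (SE 0.49) for Mertk, a receptor for dying cells, -3.08 (SE 0.87) for the Fc receptor Fcgr1, -1.30 (SE 0.39) for the mannose receptor Mrc1 and -1.30 (SE 0.46) for Ccr2, the chemokine receptor of inflammatory monocytes. Cx3cr1, a receptor of resident and patrolling cells, stood at 4.17 ± 3.15 CPM in click muscle and at 4.59 ± 3.14 CPM in EDC muscle (SD, n = 3 each). The 3 markers that lay higher in click were Timd4, a receptor of resident macrophages, at 4.23 (SE 1.32, DESeq2 adjusted p = 0.0185), Ly6c2, a surface antigen of monocytes, at 1.32 (SE 0.76) and the scavenger receptor gene Cd163 at 0.29 (SE 0.35). Timd4 had 17, 89 and 266 reads in click and 0, 3 and 23 in EDC, and its EDC reads alone would not have passed the low-count filter. The groups overlapped for Cd163 and for Ly6c2, which stood at 2.53, 2.4 and 14.9 CPM in click and at 3.46, 1.72 and 2.83 CPM in EDC. Without click replicate 2 the median was -1.37 and 19 of 23 were lower, and without EDC replicate 3 the number lower at an unadjusted p under 0.05 was 7. Over all genes tested, that number was 527 of 16236 without EDC replicate 3, against 1263 of 15797 with all libraries. The part of the macrophage content in the receptor and Spi1 differences was not tested beyond the ratios above.

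Markers of other cells that can carry these receptors were also counted. Neutrophil markers, whose cells carry Csf2ra, Csf2rb and Csf3r, summed to 6.61 to 13.9 CPM in click and to 178, 14.6 and 181 CPM in EDC replicates 1 to 3. All 8 tested were lower, with a median of -4.42, among them Ngp at -4.60 (SE 1.22), Camp at -5.07 (SE 1.38), S100a8 at -3.84 (SE 1.05) and S100a9 at -4.23 (SE 1.33). Of the 8, 6 had an unadjusted edgeR p under 0.05, 0 passed, and DESeq2 called 5. The groups overlapped for S100a8 and S100a9. Ngp had 0, 25 and 7 reads in click and 766, 114 and 272 in EDC, and its click reads alone would not have passed the low-count filter. Camp had 0, 4 and 4 reads in click and 320, 16 and 49 in EDC, and Mmp8 6, 5 and 0 in click and 209, 10 and 282 in EDC. Camp and Mmp8 passed the low-count filter only through EDC, so their direction was fixed by it. Mast cell, eosinophil and basophil markers summed to 4.15 to 10.6 CPM in click and 8.61 to 10.3 CPM in EDC, with 5 of 8 lower, a median of -0.67, 0 passing by edgeR or DESeq2 and 1 lower at an unadjusted edgeR p under 0.05; Cpa3 was at 0.292 ± 0.112 and 0.441 ± 0.201 CPM, Siglecf at 0.818 ± 0.717 and 1.40 ± 0.672 CPM in click and EDC (SD, n = 3 each), and Prg2 gave -4.06 (SE 1.19). Prg2 had 2, 0 and 0 reads in click and 30, 12 and 12 in EDC. It passed the low-count filter only through EDC, so its direction was fixed by it. The other named member, Mcpt4, gave 0.98 (SE 0.51), and Siglecf had 0 reads in click replicate 2. Without that library the median of the mast cell list was -0.30. The list of neutrophil genes includes Csf3r and that of mast cells Kit. The part of these cells in the receptor differences was not tested.

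Cells around the macrophages were also followed by lists. Among the fibroblast genes, from cells that make Csf1, 10 of 12 lay lower in click (median -0.87), 0 passed, and Pdgfra alone had an unadjusted edgeR p under 0.05, as it alone was called by DESeq2. Pdgfra stood at 15 ± 4.53 CPM in click muscle and at 36.1 ± 14.2 CPM in EDC muscle, and Dcn, a matrix proteoglycan, at 233 ± 82.4 CPM in click muscle and at 377 ± 113 CPM in EDC muscle (SD, n = 3 each). The serine protease gene Fap gave -1.06 (SE 0.46) and the collagen gene Col1a1 -1.51 (SE 0.68). The fibroblast genes summed to 860 to 4841 CPM in click and 5342 to 8276 CPM in EDC, and its part in the Csf1 difference was not tested. Without click replicate 2 their median was -0.54 and 5 were lower at an unadjusted edgeR p under 0.05, as were 1077 of all 16516 genes tested without it. Of 10 endothelial genes, 6 lay lower in click (median -0.06), 0 passed by edgeR or DESeq2 and 0 had an unadjusted edgeR p under 0.05. Pecam1 stood at 66 ± 9.23 CPM in click muscle and at 77 ± 14.8 CPM in EDC muscle, and Cdh5 at 62.1 ± 5.97 CPM in click muscle and at 65.3 ± 2.68 CPM in EDC muscle (SD, n = 3 each). Tek gave 0.34, Kdr 0.56 and Tie1 -0.23. Of 12 muscle fibre genes, 11 lay higher in click (median 0.50), 0 passed, 2 had an unadjusted edgeR p under 0.05 and DESeq2 called 1; the slow myosin gene Myh7 gave 5.39 (SE 1.41) and Myh2, a fast oxidative myosin gene, 1.82 (SE 0.71). Without EDC replicate 3 the median of the fibre genes was 0.32. Library totals in place of TMM factors moved the median of all genes by -0.47. The median over the 6 genes was then -1.95 and all 6 were lower. The same change took the fibre list to a centre of 0.00, and 6 of its 12 members fell below 0. The higher fibre levels in click thus depend on the scaling used. The fibroblast median moved to -1.32 and the endothelial median to -0.55.

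Receptors related to these were listed as well. Of 8 related receptors tested, Csf2rb2 among them, 6 were lower in click, with 0 passing and, at an unadjusted edgeR p under 0.05, 4 lower and 1 higher; DESeq2 called 3 as lower. Without EDC replicate 3 the number lower at an unadjusted p under 0.05 was 2, and 527 of all 16236 genes tested. Csf3r, the granulocyte colony-stimulating factor receptor, stood at 2.64 ± 0.996 CPM in click muscle and at 17.6 ± 14.4 CPM in EDC muscle (SD, n = 3 each; log2 fold change -2.73, SE 0.67). Tnfrsf11a, or RANK, with which Csf1r cooperates in osteoclasts, stood at 3.59 ± 1.2 CPM in click muscle and at 9.06 ± 3.4 CPM in EDC muscle (SD, n = 3 each; log2 fold change -1.33, SE 0.38). Another receptor of Il34, Ptprz1, lay the other way on few reads, 15, 24 and 22 in click and 2, 8 and 5 in EDC (log2 fold change 2.42, SE 0.72, edgeR adjusted p = 0.298). Ptprz1 was the 1 receptor counted above as higher. It passed the low-count filter only through click, so its direction was fixed by it. Sdc1, a proteoglycan that also binds Il34, stood at 9.59 ± 5.28 CPM in click muscle and at 36 ± 21 CPM in EDC muscle (SD, n = 3 each).

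Of the 7 related ligands, 3 were tested and 0 passed (0 also at an unadjusted edgeR p under 0.05 and by DESeq2). Kitl, the ligand of Kit, gave 0.35 (SE 0.20), Flt3l, the ligand of Flt3, 0.80 (SE 0.44), and Tnfsf11, or RANKL, -1.29 (SE 0.65). Csf3 was not tested: it had 0 reads in the 3 click libraries and 23, 0 and 54 reads in EDC replicates 1 to 3.

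**Figure D4:**
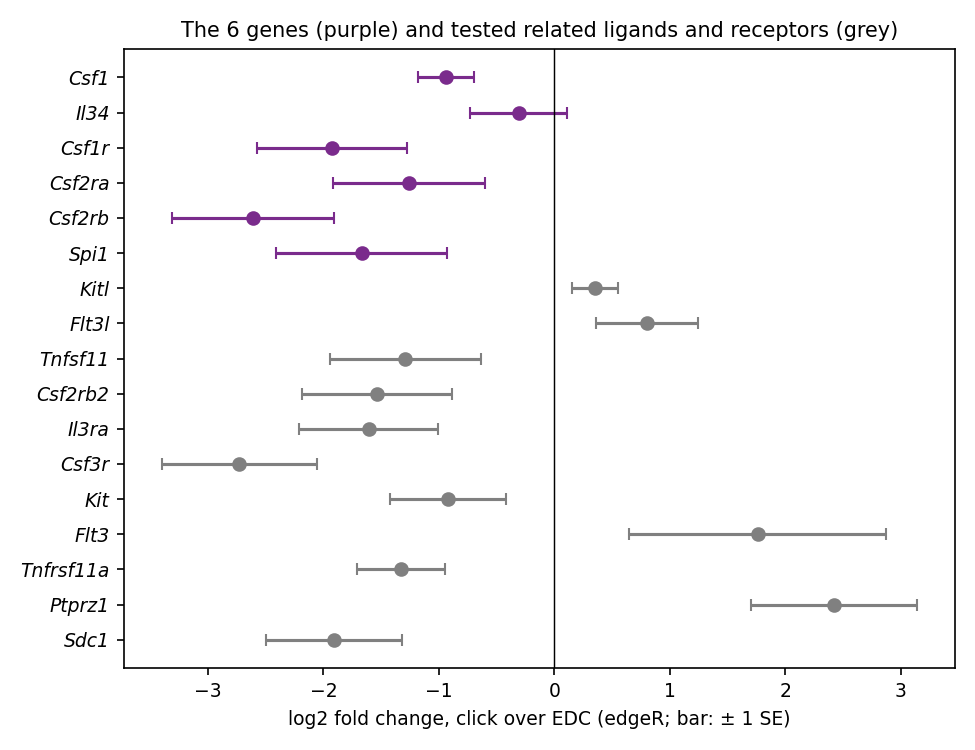
Log2 fold change, click over EDC, from edgeR with bars of 1 SE, for the 6 genes in purple and the tested related ligands and receptors in grey. The 6 lie between -2.61 and -0.31, and no gene shown passed the adjusted threshold.

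Of 28 signalling genes next to the receptors, 23 were lower in click, with a median of -0.55, 0 passing and 2 in each direction at an unadjusted edgeR p under 0.05. These values move with single libraries: without click replicate 3 the median was -1.14 and 14 genes were lower at an unadjusted p under 0.05, and without EDC replicate 3 the median was -0.32 and the number was 0. Over all genes tested, the number lower at that p moved the same way. It was 1263 of 15797 with all libraries, 2039 of 16312 without click replicate 3 and 527 of 16236 without EDC replicate 3. Fgr, a Src-family kinase of myeloid cells, gave -2.06 (SE 0.80). Stat5b, a transducer of cytokine signals, stood at 142 ± 29.5 CPM in click muscle and at 89.0 ± 14.6 CPM in EDC muscle (SD, n = 3 each; log2 fold change 0.68, SE 0.23). Cish, a feedback inhibitor that STAT5 induces, stood at 36.2 ± 33.4 CPM in click muscle and at 4.71 ± 2.87 CPM in EDC muscle (SD, n = 3 each; log2 fold change 2.95, SE 0.94), with overlapping groups; it was the 1 gene of the list that DESeq2 called (adjusted p = 0.0152).

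Among 20 other myeloid transcription factors tested, 15 were lower, with a median of -0.51 and 0 passing; 4 were lower and 1 higher at an unadjusted edgeR p under 0.05, and DESeq2 called 0. Leaving out click replicate 3 made 7 lower at that p, and leaving out EDC replicate 3 made it 1. The numbers over all genes tested were then 2039 of 16312 and 527 of 16236. Runx1, which acts with PU.1 in blood cells, gave -1.59 (SE 0.54). Irf8, a partner of PU.1, stood at 16.3 ± 9.53 CPM in click muscle and at 17.4 ± 6.80 CPM in EDC muscle (SD, n = 3 each; log2 fold change -0.10, SE 0.46). Spib, the relative of Spi1 that B cells use, gave 5.27 (SE 1.72), with overlapping groups.

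Differences were also taken within libraries of one sex and within libraries alike in the mt-Atp6 ratio. For the 5 genes whose groups do not overlap, the direction within any such split is fixed beforehand, so the sizes alone are given. For Csf1r the log2 difference in mean CPM was -1.17 between the female libraries, 1 in each group, and -2.35 between the male libraries, 2 in each group. Csf1r gave -4.13 between click replicate 2 and EDC replicates 1 and 3, which have the high ratio, and -1.11 between click replicates 1 and 3 and EDC replicate 2. In the same order, Csf1 gave -0.63, -1.07, -1.38 and -0.52, and Spi1 gave -0.82, -2.11, -4.15 and -0.76. Csf2ra gave -0.34, -1.79, -3.31 and -0.31. For Csf2rb the values were -2.99, -2.28, -3.53 and -2.08. Il34 gave -0.33, -0.20, -0.72 and 0.01. With sex or the ratio class as a covariate no member passed the edgeR threshold.

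**Figure D5:**
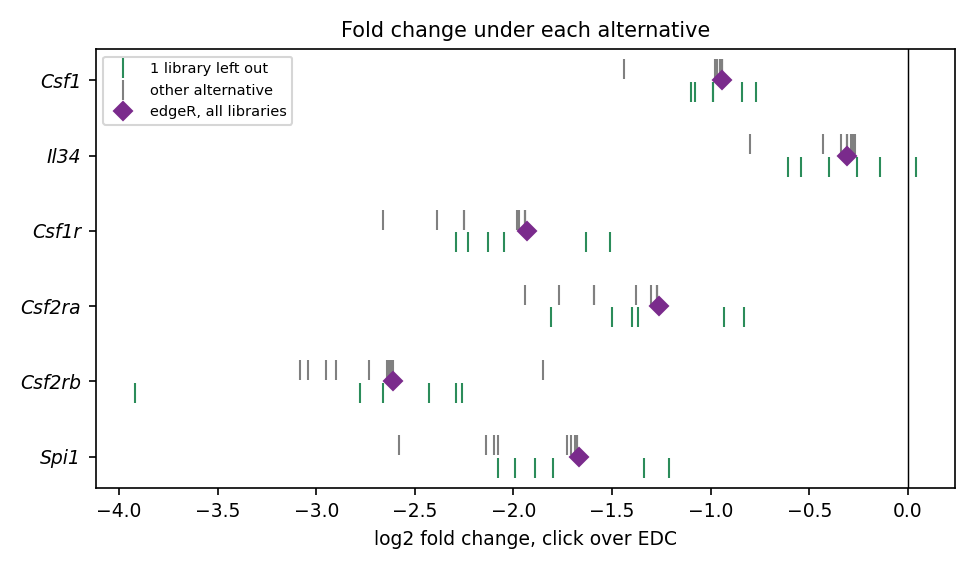
Log2 fold change of each gene, click over EDC, with all libraries (diamond), with 1 library left out (green) and under the other alternatives (grey). Only Il34 reaches a value above 0, at 0.04 without EDC replicate 1.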

How the data were processed

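The authors deposited whole-number read counts for each gene and library, not normalized, on mm10 per the submitters' processing notes. Kits for RNA extraction and SMARTER library preparation, from 1 µg of RNA, are named in the labels' protocols. No source used here gives the aligner, the counter, the annotation or whether strand was used. Lines with no symbol (3225 of 55335, 0.0631% to 0.0996% of reads) were left out. Of 52030 distinct symbols, 47745 were in GENCODE M21, which gave positions and exon lengths.

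The main test was edgeR 4.0.16 in R 4.3.3: the two-sided quasi-likelihood F test, with TMM factors, filterByExpr by group, robust dispersions and Benjamini-Hochberg adjustment over 15797 genes at a threshold of 0.05. The SE is the log2 fold change over the square root of F. The fit was tested on simulated counts with the same dispersion for every gene and no outlying library. That checks the code and not its power in libraries as unlike as these. Alternatives were DESeq2 1.42.0, limma-voom (limma 3.58.1), other scalings, filters and covariates, and leaving out each library. The 6 log2 ratios within libraries used a pseudocount of 0.5 CPM and an exact permutation test. The 6 genes, the 12 lists and the tests were chosen with earlier results of these data known. Named from each list were genes past the threshold or, with none, up to 3 with the smallest p, and defining markers; Sdc1 and Csf3 were added after their values were seen. A few genes chosen this way are not reported here. Likeness was measured among tested genes of at least 1 CPM, without predicted, ribosomal and mitochondrial genes, 3 for each member.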

Additional observations from a re-analysis of the deposited data

How the results depend on the processing

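Of 91 alternatives to the fold changes of the 6 genes, 87 kept the direction and the side of the threshold. The exceptions were the DESeq2 Wald test, which called Csf1 (-0.94), Csf1r (-1.94) and Csf2rb (-2.63), and Il34 without EDC replicate 1, which turned to 0.04; the cause was not tested. Leaving out each library gave -1.10 to -0.77 for Csf1, -0.61 to 0.04 for Il34, -2.29 to -1.51 for Csf1r, -1.81 to -0.83 for Csf2ra, -3.92 to -2.26 for Csf2rb and -2.08 to -1.21 for Spi1. Over all genes, the 1 call of the edgeR test became 606 with DESeq2 and 0 with limma-voom, the replicate block, sex or the mt-Atp6 ratio class as a covariate, and 0 to 7 when a library was left out. The ratios within libraries kept their sign in the alternatives run except for Spi1, which turned to 0.03 relative to the median of the macrophage markers. The 3 markers higher in click raise the mean of the markers there.

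Deviations of same-numbered libraries from their group means correlated at -0.0472, 0.193 and 0.279 for replicates 1 to 3. Between libraries of unlike number the values ran from -0.296 to 0.0876, so those of replicates 2 and 3 were the highest. The labels name no pairs, and the numbers were not taken as pairs. With the replicate number as a block in edgeR the adjusted p was 0.106 for Csf1 (SE 0.17) and 0.104 for Csf2rb (SE 0.51). Without the block the SE was 0.24 and 0.70. Counting error weighs most on Il34 (47 to 189 reads a library), on Csf2rb in click replicates 1 and 2 (34 and 29 reads) and, in click replicate 2, on Spi1 (40 reads), Csf2ra (42 reads) and Csf1r (168 reads).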

Other observations

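Markers of dendritic cells and lymphocytes were also counted. Of 8 dendritic cell markers tested, 6 were higher in click, with a median log2 fold change of 0.76 and 0 past the edgeR threshold (1 higher at an unadjusted p under 0.05, and 1 called by DESeq2). Zbtb46, a transcription factor of classical dendritic cells, stood at 5.18 ± 1.33 CPM in click muscle and at 4.57 ± 0.608 CPM in EDC muscle (SD, n = 3 each), Xcr1 gave 0.95 (SE 0.42), Siglech 2.71 (SE 1.49), and Ccr7 gave 4.50 (SE 1.39) with overlapping groups. The 2 that were lower were Itgax at -1.77 (SE 1.24) and Batf3 at -0.02 (SE 0.57). Itgax stood at 35.7 ± 32.5 CPM in click muscle and at 122 ± 69.6 CPM in EDC muscle (SD, n = 3 each). Dendritic cell markers summed to 73.5, 15.1 and 89.2 CPM in click replicates 1 to 3 and to 89.1, 93.5 and 211 CPM in EDC replicates 1 to 3. Itgax alone gave 64.3, 0.437 and 42.3 CPM of these sums in click and 77.5, 86.3 and 202 CPM in EDC. The EDC sums thus rest mostly on Itgax, while 6 of the 8 markers were higher in click. Without click replicate 3 the median of the dendritic cell markers was 0.14, with 3 of 9 lower. Lymphocyte markers summed to 16.0, 97.3 and 322 CPM in click replicates 1 to 3 and to 107, 14.7 and 26.2 CPM in EDC replicates 1 to 3, with 9 of 10 tested markers higher, a median of 3.19 and 0 past the edgeR threshold (6 higher at an unadjusted p under 0.05, and 6 called by DESeq2). Cd79b gave 4.15 (SE 1.08), Cd79a 5.89 (SE 1.74) and Cd3e 1.48. Without click replicate 3 the median of the lymphocyte markers was 1.00, with 5 of 11 tested lower. Spib had 0, 217 and 804 reads in click replicates 1 to 3 and 3 to 21 reads in EDC.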
